A study of Mus musculus with 9 samples.

Results

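The miRNAs described here are mmu-miR-208a-3p, mmu-miR-208b-3p, mmu-miR-499-5p and mmu-miR-499-3p, the products of 3 hairpins that lie in introns of myosin heavy chain genes. They were chosen by a rule on name and host gene that uses no measured value, and make up 4 of the 1966 mature miRNAs in the table of raw counts. Of these 4 members, 3 had at least 1 count in the 9 libraries and 1 was listed at 0 throughout. Small RNA was sequenced from quadriceps muscle of 9 mice, with 3 mice in each of 3 groups, all labelled as 90 days old. The WT mice were C57BL/6J with the genotype Mbnl1+/+ Mbnl2+/+. The Mbnl1KO mice were C57BL/6J with Mbnl1 ΔE3/ΔE3 and intact Mbnl2 (Mbnl2+/+). The Mbnl2KO mice were labelled with the strain B6.C-Tg(CMV-cre)1Cgn/J, which carries Cre under the CMV promoter, and had intact Mbnl1 (Mbnl1+/+). Their Mbnl2 alleles were ΔE2/ΔE2 in replicate 1, ΔE2/ΔE3 in replicate 2 and ΔE2/ΔE4 in replicate 3, as the labels give them, whereas the text of the study names ΔE2/ΔE2 alone for this line, and which of these holds was not settled here. The strain differed between Mbnl2KO and both other groups, and its part in any difference cannot be told apart from that of the genotype. The comparisons of each knockout with WT, and of the knockouts with each other, ask how the loss of either Mbnl protein changes miRNA levels in muscle.

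MicroRNAs are short RNAs cut from hairpin precursors that repress mRNAs paired to their seed, the bases near the 5′ end. Several myosin heavy chain genes carry a miRNA in an intron, and host gene and miRNA can be made from 1 primary transcript. Myh6, which encodes the alpha myosin heavy chain of the heart, holds miR-208a. Myh7, which encodes the beta or slow myosin heavy chain of heart and slow muscle fibres, holds miR-208b, and Myh7b holds miR-499. In mouse skeletal muscle miR-208b and miR-499 are known from slow fibres, whereas quadriceps consists largely of fast fibres. Mbnl1 and Mbnl2 are RNA-binding proteins of the muscleblind family, which regulate splicing and other steps of RNA processing and are sequestered by expanded repeats in myotonic dystrophy.

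The mature sequences are shown because the members from different genes share a seed, while the arms of miR-499 differ in theirs. Bases 2 to 8 are in capitals and the sequences are those of RefSeq (table of build GRCm38.p6), in which all 4 members were matched by name.
mmu-miR-208a-3p: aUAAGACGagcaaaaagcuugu
mmu-miR-208b-3p: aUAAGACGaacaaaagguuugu
mmu-miR-499-5p: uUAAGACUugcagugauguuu
mmu-miR-499-3p: gAACAUCAcagcaagucugugcu

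Between mmu-miR-208a-3p and mmu-miR-208b-3p 19 of 22 bases were identical, and the 3 differences from the former to the latter, with positions counted from 1 at the 5′ end, were G10A, A16G and C18U. Both share bases 2 to 7 with mmu-miR-499-5p, and of the 1679 mature mouse miRNAs in the sequence table these 3 were the ones with these bases at positions 2 to 7. They differ from mmu-miR-499-5p at base 8. The other arm, mmu-miR-499-3p, has a different seed. The lengths were 22 bases for both miR-208 members, 21 bases for mmu-miR-499-5p and 23 bases for mmu-miR-499-3p. Their GC contents were 36.4%, 31.8%, 33.3% and 47.8%, in the order in which the sequences are printed.

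In the GRCm39 build, mmu-miR-208a-3p lies at chr14:55186529-55186550 on the minus strand, within a hairpin of 83 bases in intron 29 of Myh6, an intron of 542 bases. mmu-miR-208b-3p lies at chr14:55213167-55213188 on the minus strand, within a hairpin of 77 bases in intron 31 of Myh7, an intron of 461 bases. The arms of miR-499 lie at chr2:155464813-155464833 and chr2:155464849-155464871 on the plus strand, within a hairpin of 79 bases in intron 19 of Myh7b, an intron of 481 bases. Each hairpin is on the same strand as its host gene, and introns were numbered on the canonical GENCODE transcript. Muscleblind proteins bind RNA with the letters UGCU or UGCC, or the same with C as the first base (CGCU and CGCC), and these letters were counted on the strand of the transcript only. The Mir208a hairpin held 0 such matches, Mir208b held 1 and Mir499 held 3, of which 2 were UGCU and 1 was UGCC. Among 150 mouse hairpins of 77 to 83 bases, 75.3% held at least 1 match and 14.0% held at least 3. A match is a description of the letters and not a measured binding site.

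The libraries held 4761271 to 6277018 counts each, and 524 to 602 mature miRNAs had a count in a library. miR-1a-3p, the main miRNA of muscle fibres, took 61.4% to 73.7% of the counts, with the lowest share in Mbnl1KO replicate 1. Against this depth the members were rare: the 4 together had 235 of 51607673 counts, or 0.000455%. Levels below are counts per 1000000 (CPM), for which library sizes were scaled with the trimmed mean of M-values (TMM) over all 9 libraries. Some entries that muscle, vessels or blood are known for, such as miR-486a-5p, miR-126a-3p and miR-142a-3p, were also listed at 0 in every library, so a member at 0 is described only as listed at 0. Nothing in the labels names a batch.

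mmu-miR-499-5p was the one member with counts in every library, and its level varied widely between mice of the same group. It had 29, 22 and 7 counts in WT replicates 1, 2 and 3, which are 5.13, 3.70 and 1.52 CPM. In Mbnl1KO it had 14, 96 and 11 counts, which are 1.88, 17.5 and 1.66 CPM. In Mbnl2KO it had 25, 4 and 9 counts, which are 4.44, 0.657 and 1.99 CPM. Mbnl1KO replicate 2 stood above all 8 other libraries, the other Mbnl1KO mice lay between WT replicates 2 and 3, and all 3 groups overlapped. In bulk muscle, fewer fibres of a type and less RNA per fibre cannot be told apart in such a level.

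The exact 95% Poisson interval of the count in Mbnl1KO replicate 2 ran from 77.8 to 117.2, above the interval of every other library. Those of the other Mbnl1KO libraries were 7.65 to 23.5 in replicate 1 and 5.49 to 19.7 in replicate 3. Within WT the interval of replicate 1, 19.4 to 41.7 counts, did not overlap that of replicate 3, 2.81 to 14.4 counts, and within Mbnl2KO that of replicate 1, 16.2 to 36.9 counts, did not overlap that of replicate 2, 1.09 to 10.2 counts. These intervals cover counting error only, and the libraries of a group differed beyond it over all miRNAs as well (chi-square per degree of freedom of 38.8 to 271.6 between replicates). The highest library was 3.38 times the lowest in WT, 10.5 times in Mbnl1KO and 6.75 times in Mbnl2KO, on the CPM scale. It held 50.0%, 79.3% and 65.8% of its group's counts of mmu-miR-499-5p, in the same order. By level, mmu-miR-499-5p ranked from 171 in Mbnl1KO replicate 2 to 373 in Mbnl2KO replicate 2 among the miRNAs of a library.

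**Figure D1:**
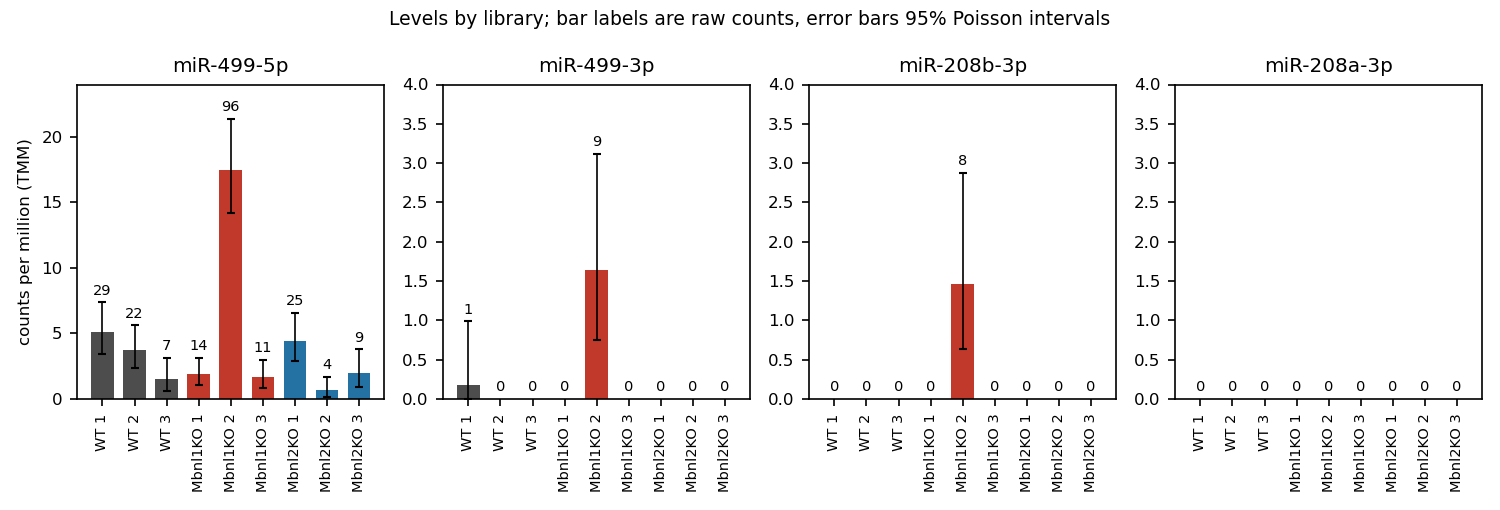
Each panel plots 1 member, with a bar for each of the 9 libraries on a linear axis of CPM (counts scaled with TMM), error bars for the exact 95% Poisson interval of the count, and the raw count above the bar. The vertical scale of mmu-miR-499-5p differs from that of the other panels, and Mbnl1KO replicate 2 has the tallest bar of mmu-miR-499-5p (96 counts), mmu-miR-499-3p (9 counts) and mmu-miR-208b-3p (8 counts), while mmu-miR-208a-3p has no bar.

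mmu-miR-499-5p did not pass the test in any of the 3 comparisons. It averaged 3.45 ± 1.82 CPM in WT, 7.02 ± 9.09 CPM in Mbnl1KO and 2.36 ± 1.92 CPM in Mbnl2KO (SD, n = 3 mice each). Against WT its log2 fold change in Mbnl1KO was 0.87 (SE 1.20, 95% interval -2.30 to 4.03, adjusted p = 0.649 by the quasi-likelihood test of edgeR), where 33.1% of the 317 miRNAs tested passed an adjusted p of 0.05. In Mbnl2KO the log2 fold change against WT was -0.58 (SE 0.516, 95% interval -1.65 to 0.49, adjusted p = 0.563 by edgeR), where 5.8% of the 293 miRNAs tested passed. Between the knockouts, Mbnl1KO minus Mbnl2KO, it was 1.49 (SE 1.26, 95% interval -1.73 to 4.71, adjusted p = 0.411 by edgeR), where 26.9% of the 309 miRNAs tested passed. The median log2 difference of all miRNAs tested was -0.01, 0.02 and 0.07 in these comparisons. Of the 4 members only mmu-miR-499-5p passed the filter on low counts, in each comparison, and of these tests 0 were called and 0 had an unadjusted p under 0.05 by edgeR or by DESeq2. With no filter beyond 1 count, 0 members were called by edgeR, while mmu-miR-208b-3p had an unadjusted p of 0.022 in Mbnl1KO against WT (adjusted p = 0.147) and 0.0254 against Mbnl2KO (adjusted p = 0.177), and mmu-miR-499-3p had 0.0181 in Mbnl1KO against Mbnl2KO (adjusted p = 0.14). All 3 intervals of mmu-miR-499-5p include both a loss and a gain. The comparisons share libraries, since each group enters 2 of them.

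The direction in Mbnl1KO rested on a single library. Without Mbnl1KO replicate 2 the mean of the other Mbnl1KO mice was 1.77 CPM, and the log2 fold change against WT turned to -1.04 (SE 0.409, 95% interval -1.85 to -0.24, adjusted p = 0.0344 by edgeR). The groups still overlapped in this setting, because WT replicate 3, at 1.52 CPM, lay below both remaining Mbnl1KO mice. That call also depended on the tool and the scaling. The adjusted p was 0.0304 with DESeq2 size factors in edgeR and 0.0455 with library totals that leave out miR-1a-3p, but 0.213 with plain library totals and 0.197 by the Wald test of DESeq2, with log2 fold changes from -1.07 to -0.69. Between the knockouts the log2 difference turned to -0.50 without this library (adjusted p = 0.575 by edgeR). In Mbnl2KO against WT no library turned the sign, and leaving out 1 library at a time gave -1.53 without Mbnl2KO replicate 1 and -0.08 without Mbnl2KO replicate 2.

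**Figure D2:**
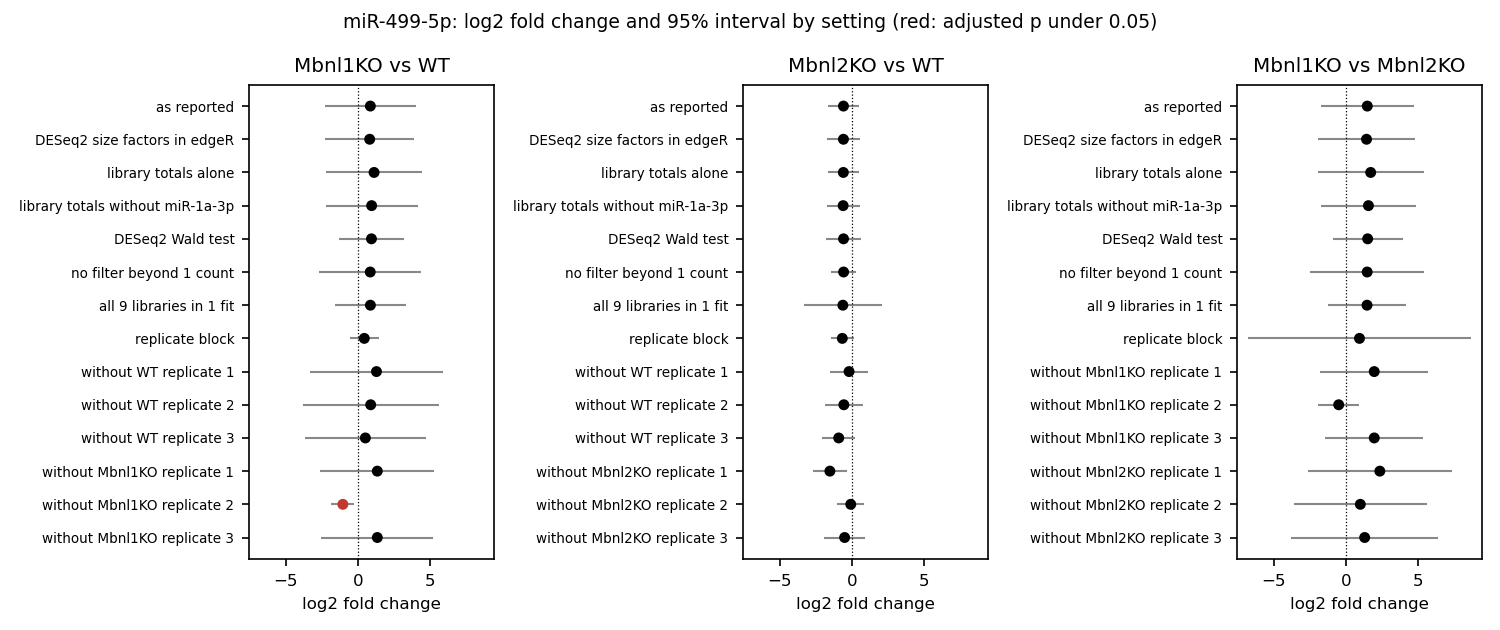
Points are the log2 fold change of mmu-miR-499-5p (first group minus second) in the 3 comparisons, 1 row for each processing setting changed alone (combined settings are not drawn), with lines for the 95% interval (from edgeR, or a normal interval for the Wald test of DESeq2) and red for an adjusted p under 0.05. The point for Mbnl1KO against WT moves from 0.87 to -1.04 when Mbnl1KO replicate 2 is left out, and this is the only red point drawn.

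mmu-miR-499-3p, the other arm of the Myh7b hairpin, was found in the libraries with the most mmu-miR-499-5p. It had 9 counts (1.64 CPM) in Mbnl1KO replicate 2, 1 count (0.177 CPM) in WT replicate 1, and was at 0 in the other 7 libraries. These are the first and second library in the order of mmu-miR-499-5p, and Mbnl2KO replicate 1, the third, had 0 counts. Differences of the group means were 0.488 CPM for Mbnl1KO minus WT, -0.059 CPM for Mbnl2KO minus WT and 0.547 CPM for Mbnl1KO minus Mbnl2KO. In each the two-sided exact permutation p was 1.0, and 3 mice against 3 cannot go below 0.1. At most 1 library of a group was above 0, so no split of the libraries gives a smaller difference. This fixed the p whatever the size of those counts, and the test decides nothing here.

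The share of the 3p arm among both arms does not depend on how libraries are scaled. It was 8.57% in Mbnl1KO replicate 2 (9 of 105 counts, exact Clopper-Pearson 95% interval 3.99% to 15.6%) and 3.33% in WT replicate 1 (1 of 30 counts, interval 0.0844% to 17.2%). The intervals of these libraries overlapped. mmu-miR-499-5p was thus 10.7 and 29.0 times as frequent as its partner arm in the libraries that held both. In the other 7 libraries the share was 0 of 4 to 25 counts, which by a floor of 3 counts allows shares of up to 12.0% in Mbnl2KO replicate 1 and up to 75.0% in Mbnl2KO replicate 2, where the Clopper-Pearson intervals end at 13.7% and 60.2%. Mean shares were 1.11 ± 1.92% in WT, 2.86 ± 4.95% in Mbnl1KO and 0% in Mbnl2KO (SD, n = 3), and the exact permutation p was 1.0 in all 3 comparisons. With the counts of each group summed, the shares were 1.69%, 6.92% and 0%, so that Mbnl1KO minus WT came to 5.23 percentage points in place of 1.75. The smallest p that this test allows is 0.1, so no difference in arm share could have passed it. With at most 1 library of a group above 0, the p was also fixed in advance, and the test decides nothing about arm shares.

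mmu-miR-208b-3p, from the slow myosin gene Myh7, was found in 1 library of 9. It had 8 counts in Mbnl1KO replicate 2 (Poisson interval 3.45 to 15.8 counts), which is 1.46 CPM with an interval from 0.63 to 2.88, and it was at 0 in the other Mbnl1KO mice and in all WT and Mbnl2KO mice. The floor of 3 counts over the other 8 libraries is 0.0645 CPM, and the level of 1.46 CPM in Mbnl1KO replicate 2 was 22.6 times this floor. That ratio leaves out the counting error of the 8 counts, whose interval starts at 0.63 CPM, so it is not a lower limit. As a group, Mbnl1KO averaged 0.486 ± 0.843 CPM (SD, n = 3), all of it from this mouse, and the exact permutation p against WT, as against Mbnl2KO, was 1.0. With counts in 1 library alone, every split of the libraries gives a difference of the same size. That p was thus fixed in advance, and the test decides nothing about this member. mmu-miR-208b-5p, the other arm of this hairpin, was listed at 0 in all 9 libraries.

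mmu-miR-208a-3p, from the cardiac myosin gene Myh6, was listed at 0 in all 9 libraries, as was its other arm mmu-miR-208a-5p. A floor of 3 counts over all libraries is 0.0577 CPM, which is a limit on its level only if its reads were counted at all, and that was not tested. Its near relative mmu-miR-208b-3p, which differs from it at 3 bases, was counted under its own name in Mbnl1KO replicate 2, where mmu-miR-208a-3p had 0 counts. How reads that fit more than 1 entry were assigned is not given in the sources used here.

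The 3 detected members were thus all highest in the same mouse. Set against the pooled counts of the other 8 libraries, Mbnl1KO replicate 2 had 6.73-fold more mmu-miR-499-5p (95% interval 5.1 to 8.88) and 76.4-fold more mmu-miR-499-3p (interval 10.6 to 3350.0, with 1 count in the other 8 libraries). This library was singled out after its values were seen, the ratios compare libraries and not conditions, and the intervals cover counting error only. Summed over the 4 members, Mbnl1KO replicate 2 had 113 counts, or 0.00214% of its library, and the other 8 libraries had 4 to 30 counts. Of all counts of mmu-miR-499-5p in the series, 44.2% came from this mouse.

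This spread was set beside that of all 310 miRNAs that averaged more than 10 normalized counts in the 9 libraries. In Mbnl1KO the highest of the 3 libraries was 9.33 times the median library for mmu-miR-499-5p, the largest such ratio of the 310, whose median was 1.13. In Mbnl2KO the ratio was 2.23, and 8 of the 310 miRNAs, mmu-miR-499-5p included, had one as large. In WT it was 1.39, and 48 of the 310 had one as large. Among the 132 of these miRNAs with a mean of at most 3 times that of mmu-miR-499-5p the numbers were 1, 7 and 36 in Mbnl1KO, Mbnl2KO and WT.

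**Figure D3:**
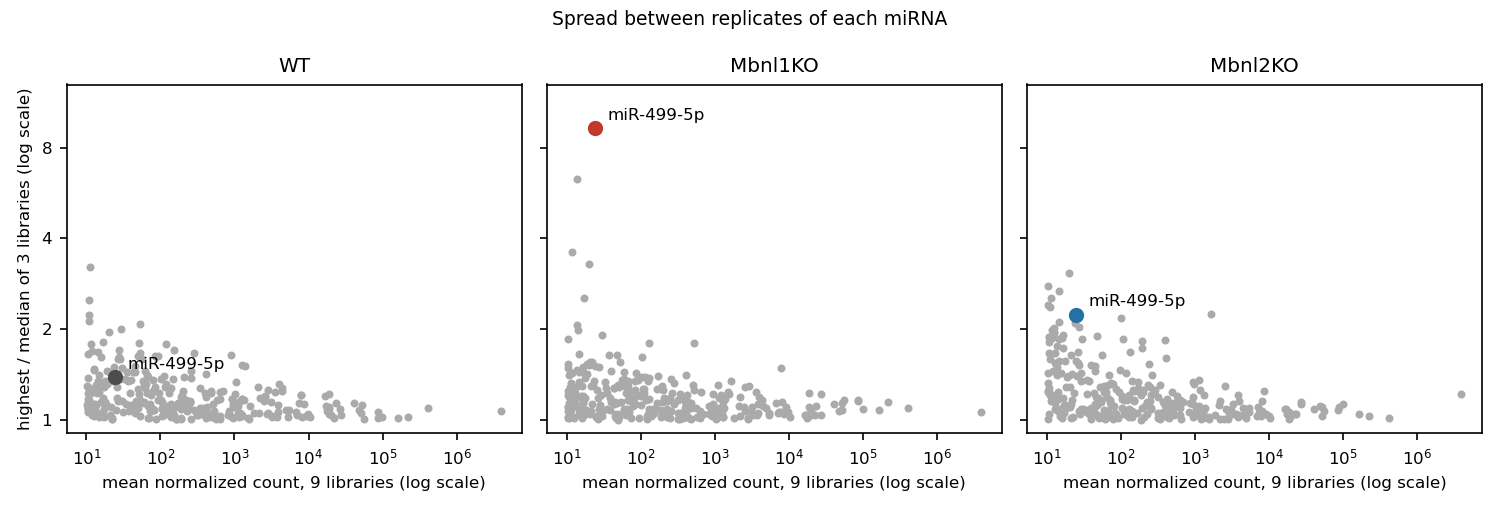
Each point is 1 of 310 miRNAs, with its mean normalized count over 9 libraries on a log axis and, on the vertical log axis, the ratio of the highest to the median of the 3 libraries of the group named above the panel. The coloured point is mmu-miR-499-5p, at 1.39 in WT, 9.33 in Mbnl1KO and 2.23 in Mbnl2KO, and in Mbnl1KO it lies above every grey point.

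Over all 9 libraries, the highest value of mmu-miR-499-5p was 3.41 times the next, again the largest of the 310. The next in this order were miR-6236 at 2.98 and miR-450a-1-3p at 2.32, both highest in Mbnl1KO replicate 2, and miR-140-3p at 2.25, highest in Mbnl2KO replicate 2. They were named after their values were seen. Mbnl1KO replicate 2 was the highest of 9 libraries for 46 of the 310 miRNAs, against 21 to 48 in the others, and at least 2-fold above the next library for 3, against 1 in Mbnl2KO replicate 2 and 0 in the other 7.

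The miRNAs whose pattern over the 9 libraries was most like that of mmu-miR-499-5p were named by the Pearson r of log2(CPM + 1), as a description. Of 309 miRNAs compared, r ranged from -0.847 to 0.825 with a median of -0.003. The 5 highest were miR-3068-5p (r = 0.825), miR-30e-5p (r = 0.740), miR-1970b-5p (r = 0.731), miR-511-5p (r = 0.708) and miR-6236 (r = 0.705). Without Mbnl1KO replicate 2, r was 0.768, 0.402, 0.373, 0.459 and -0.025 in this order, so that the likeness of miR-6236 rested on that mouse. miR-3068-5p had 16.4 CPM in Mbnl1KO replicate 2 and 6.74 CPM in Mbnl2KO replicate 2, which were also the highest and the lowest libraries of mmu-miR-499-5p, and 10.7 to 13.8 CPM in the other 7. miR-6236 had 9.30 CPM in Mbnl1KO replicate 2 and 0.867 to 3.12 CPM in the others. The points share libraries and depth, and 9 libraries are few for ranking 309 miRNAs. A correlation between members could not be computed, because mmu-miR-499-5p alone had counts in at least 6 libraries.

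Other miRNAs known from muscle fibres, the myomiRs, are set beside the members. Of a list of 16 mature forms of miR-1, miR-133, miR-206 and miR-486, 8 were listed at 0 in all libraries and 6 were tested in each comparison. In Mbnl1KO against WT 2 of the 6 were higher, 1 was lower and 3 did not pass, with a median log2 fold change of -0.09, beside 33.1% called and a median of -0.01 over all miRNAs tested. miR-206-3p, a muscle miRNA known from slow fibres and regenerating muscle, rose by 1.93 on the log2 scale (adjusted p = 4.37e-21 by edgeR). miR-133b-3p, which is made from the same locus as miR-206, rose by 0.71 (adjusted p = 0.0172 by edgeR), a call that 3 of 13 alternative settings lost, each by leaving out 1 library: WT replicate 1, WT replicate 2 or Mbnl1KO replicate 1. miR-1a-1-5p, the rarer arm of a miR-1a hairpin, fell by 0.98 (adjusted p = 0.00063 by edgeR), a call that was lost with plain library totals (adjusted p = 0.0517).

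In Mbnl2KO against WT miR-206-3p rose by 0.89 (adjusted p = 0.00076 by edgeR) and the other 5 did not pass, with a list median of -0.15, beside 5.8% called and a median of 0.02 over all miRNAs tested. miR-1a-1-5p, at -0.66 there (adjusted p = 0.0636 by edgeR), passed in 2 of 13 alternative settings, the Wald test of DESeq2 (adjusted p = 0.0436) and the fit without WT replicate 3 (adjusted p = 0.0485). Between the knockouts miR-206-3p was higher in Mbnl1KO by 1.06 (adjusted p = 2.87e-05 by edgeR) and miR-133b-3p by 0.88 (adjusted p = 0.00719 by edgeR), with a list median of 0.08. Over all miRNAs tested between the knockouts 26.9% were called, with a median of 0.07. miR-1a-3p had log2 fold changes of -0.40 in Mbnl1KO against WT (adjusted p = 0.0502 by edgeR) and 0.02 in Mbnl2KO against WT (adjusted p = 0.958 by edgeR). In Mbnl1KO against WT it passed as lower in 4 of 14 alternatives, with adjusted p = 0.0233 with DESeq2 size factors in edgeR, 0.0248 by DESeq2, 0.0458 in a joint fit of the 9 libraries and 0.00748 once Mbnl1KO replicate 2 was left out. Between the knockouts it was at -0.40 (adjusted p = 0.0627 by edgeR) and passed in 3 of 14.

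miR-206-3p separated the groups without overlap, with 632 to 713 CPM in WT, 998 to 1490 CPM in Mbnl2KO and 2330 to 2860 CPM in Mbnl1KO. In Mbnl1KO replicate 2, the mouse with the most mmu-miR-499-5p, it had 2860 CPM, close to the 2740 and 2330 CPM of the other Mbnl1KO mice. miR-133b-3p had 20.2 CPM in that mouse, between the 22.9 and 17.4 CPM of the others. miR-1a-1-5p had 7.66 CPM there, the lowest of the 9 libraries, against 12.7 and 15.3 CPM in the other Mbnl1KO mice. Of the 6 tested myomiRs miR-206-3p was also highest of the 9 libraries there, at 1.045 times the next, against 3.41 times for mmu-miR-499-5p, and the r of the 6 with mmu-miR-499-5p over the 9 libraries lay between -0.374 and 0.361.

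**Figure D4:**
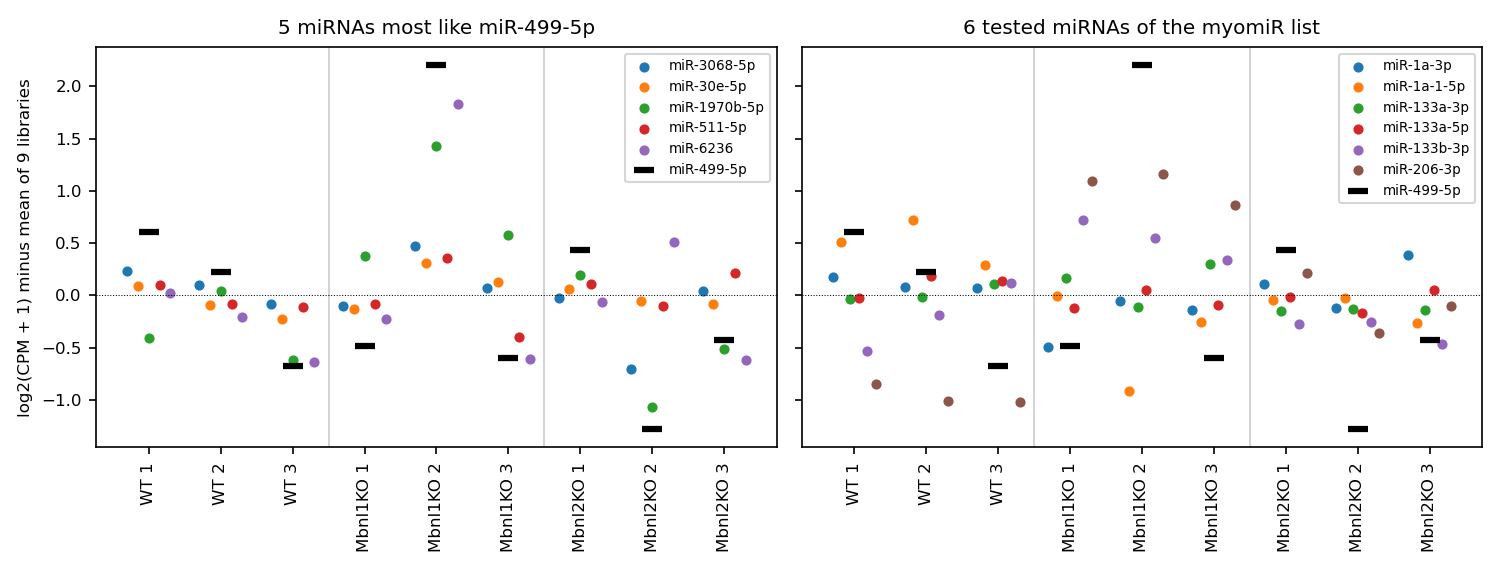
The vertical axis is log2(CPM + 1) minus the mean of 9 libraries, for the 5 miRNAs most like mmu-miR-499-5p on the left and the 6 tested myomiRs on the right, with mmu-miR-499-5p as a black bar in both and no error bars, since each point is 1 library. On the left miR-6236 and miR-1970b-5p come nearest to the black bar in Mbnl1KO replicate 2, and on the right miR-206-3p is high in all 3 Mbnl1KO mice while mmu-miR-499-5p is high in 1.

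As a check of the labelled tissue, the myomiR list summed to 570000 to 961000 CPM in every library. Lists for other cell types in the muscle gave these sums beside the result in Mbnl1KO replicate 2. The 8 blood and immune miRNAs, of which 7 had counts and miR-142a-3p was at 0, summed to 597 CPM there, the highest of 9 libraries, with 485 and 513 CPM in the other Mbnl1KO mice, 471 to 551 CPM in WT and 514 to 555 CPM in Mbnl2KO. The sum hides opposite directions, since of the 6 tested in Mbnl1KO against WT 1 was higher (miR-155-5p, 0.86), 3 were lower (miR-142a-5p, miR-223-3p and miR-146a-5p) and 2 did not pass by edgeR, with a median log2 fold change of -0.25. Over all miRNAs tested in this comparison 33.1% were called, with a median of -0.01. The 7 miRNAs of vessel wall and connective tissue, of which both arms of miR-126a were at 0, summed to 8550 CPM there, 5940 and 8310 CPM in the other Mbnl1KO mice, 6250 to 6620 CPM in WT and 7690 to 8690 CPM in Mbnl2KO. Of the 5 tested in Mbnl1KO against WT 0 were higher, 1 was lower (miR-199a-3p, -0.43) and 4 did not pass by edgeR, with a median of -0.05, beside 33.1% called over all miRNAs tested. In Mbnl2KO against WT 1 of the 5 was higher (miR-143-3p, 0.48), 0 were lower and 4 did not pass by edgeR, beside 5.8% called over all miRNAs tested. Of the 4 neural miRNAs 3 were at 0 in all libraries, and their sum was 0 in Mbnl1KO replicate 2 and at most 0.453 CPM elsewhere. The part of these cell types in the level of the members was not tested.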

How the data were processed

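The authors deposited raw counts per mature miRNA for 9 small RNA libraries (NEXTflex Small RNA-Seq kit). Per the study's methods, adapters were clipped, identical reads were collapsed and matched to miRBase without mismatches by Megablast. The deposited table does not state its own counting rule. Each comparison used the 6 libraries of its groups in edgeR 4.0.16 (R 4.3.3, TMM factors, robust quasi-likelihood test, mean normalized count above 10, Benjamini-Hochberg adjustment over all miRNAs tested, threshold 0.05). DESeq2 1.42.0 was an alternative. The edgeR and DESeq2 fits of Mbnl1KO against WT were also run on simulated counts with known changes, the outcome of which is not given here. The permutation tests were not run on simulated data. CPM values used TMM factors over 9 libraries. Members under the filter and arm shares were compared by two-sided exact permutation tests (SciPy 1.17.1), with Benjamini-Hochberg adjusted values of 1.0 as well. Intervals and the floor of 3 counts cover counting error only. The members and lists were chosen with earlier results of these data known. Besides the members and their other arms, the text names the 5 miRNAs most like mmu-miR-499-5p by Pearson r, the myomiRs that passed the test, and miR-1a-3p. miR-450a-1-3p, miR-140-3p, the called miRNAs of the blood and vessel lists and entries listed at 0 (miR-486a-5p, miR-126a-3p, miR-142a-3p) were named after their values were seen. Lists covered myomiRs, blood and immune cells, vessel wall and connective tissue, and neural miRNAs. Alternatives covered scaling, filter, tool, joint fit, threshold, replicate block and each replicate left out. Labels give a group and a replicate number for each sample and name no single animal. Each sample was taken as a separate mouse, and p-values measure the spread between these samples.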

Additional observations from a re-analysis of the deposited data

How the results depend on the processing

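mmu-miR-499-5p in Mbnl1KO against WT ranged from -1.07 to 1.35 on the log2 scale over 18 alternatives, of which 13 kept the sign and 3 were called by edgeR. Leaving out 1 library gave -1.04 to 1.35, and the 4 added settings without Mbnl1KO replicate 2, chosen after seeing the data, gave -1.07 with DESeq2 size factors, -0.69 with library totals, -1.01 with totals less miR-1a-3p and -1.07 by DESeq2. In Mbnl2KO against WT all 14 alternatives kept the sign (-1.53 to -0.08, 0 called), and between the knockouts 13 of 14 did (-0.50 to 2.36, 0 called). Library totals raised the median of all miRNAs in Mbnl1KO against WT to 0.30, relative to which mmu-miR-499-5p stood at 0.83. The difference of Mbnl1KO from WT, with 1 library left out, ran from -0.059 CPM (without Mbnl1KO replicate 2) to 0.762 CPM for mmu-miR-499-3p, and from -1.11 percentage points (without the same mouse) to 3.17 for its arm share. The count of miRNAs called in Mbnl1KO against WT (105) was 68 with a filter of 100 and 75 to 115 with 1 library left out. In Mbnl2KO against WT (17) it was 7 with library totals, 9 with a filter of 100, 11 with all 9 libraries in 1 fit, 6 at a threshold of 0.01 and 6 to 25 with 1 library left out. Between the knockouts (83) it was 45 at 0.01 and 56 to 93 with 1 library left out. With the replicate number as a block, the log2 values of mmu-miR-499-5p were 0.45, -0.66 and 0.95, the replicate block changed no call of a member, and the counts were 92, 21 and 80. Same-numbered samples correlated between -0.162 and 0.088, and 1 of 9 correlated best with its own number. This gave no sign that the numbers pair samples, but a check on 3 libraries per group cannot exclude it. The study calls the WT mice littermates, and the labels name no litters. In the other 144 alternatives a value did not turn its sign or cross the threshold, or the counts of calls ran from 73 (at 0.01) to 115, from 12 to 25 and from 56 to 93 in the order of the comparisons above. Some of these fell to 0: without Mbnl1KO replicate 2, mmu-miR-208b-3p in both its comparisons and mmu-miR-499-3p and its arm share between the knockouts, and, without WT replicate 1, mmu-miR-499-3p and its arm share in Mbnl2KO against WT. Leaving miR-1a-3p out of the library totals shrinks the denominator of CPM, and took the difference of Mbnl1KO from WT to 1.61 CPM for mmu-miR-208b-3p and 1.63 CPM for mmu-miR-499-3p. The cause of the other changes was not tested. A filter of 100 left no value for mmu-miR-499-5p. Depth limits all of this, with 4 to 96 counts of mmu-miR-499-5p per library and at most 9 counts of any other member.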
